A study of Mus musculus with 28 samples.

Results

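Serotonin receptor mRNAs were measured in the dorsal hippocampus of male C57Bl6 mice. The 10 genes Htr1a, Htr1b, Htr2a, Htr2c, Htr3a, Htr4, Htr5a, Htr5b, Htr6 and Htr7 were taken by symbol from a deposited count table of 50686 genes. RNA from snap-frozen tissue was sequenced in 28 libraries of 6 groups. Basal mice (n = 4) were neither conditioned nor treated. The other 5 groups underwent auditory fear conditioning, a task that pairs a sound with a foot shock. They were given vehicle (Vehicle, n = 4) or a compound that binds the glucocorticoid receptor, the nuclear receptor of stress steroids. Cort (n = 5) is the usual short form of corticosterone, which activates that receptor in mice, and RU486 (n = 5) is mifepristone, which blocks it. Only code names are known for the compounds of the C108 (n = 5) and C118 (n = 5) groups. The sources used here do not give ages, doses or times. Every conditioned group also received vehicle or a ligand, so conditioning and treatment cannot be told apart in comparisons with Basal. The labels do not say whether each library came from a separate mouse, so p-values measure the spread between these libraries, which may be technical.

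Serotonin reaches the hippocampus through axons of the raphe nuclei, and its receptors sit on pyramidal cells, granule cells, interneurons and the serotonin terminals themselves. Htr1a, Htr1b and Htr5a encode receptors that couple to inhibitory Gi/o proteins and lower cyclic AMP. Htr2a and Htr2c couple to Gq and phospholipase C, while Htr4, Htr6 and Htr7 couple to Gs and raise cyclic AMP. Htr3a encodes a subunit of a cation channel that serotonin opens. The coupling of the Htr5b receptor is less settled. Mouse Htr1b is known as a receptor of axon terminals, which means that its protein can lie far from the cell body that holds its mRNA.

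Gene counts summed to 16.2 to 20.3 M (10 to the power of 6) per library. All 10 receptors passed the filter on low counts, which kept 16735 genes. Levels are given in CPM (counts per 10 to the power of 6 counts, on library sizes scaled by the trimmed mean of M values). Libraries carry the sample numbers of their titles, and values are listed in the order 1, 9, 14, 27 for Basal, 3, 16, 23, 29 for Vehicle, 4, 11, 17, 30, 36 for Cort, 6, 12, 19, 25, 32 for RU486, 8, 21, 26, 34, 39 for C108 and 7, 13, 20, 33, 38 for C118. As a check of the labels, Fkbp5, a target gene of the glucocorticoid receptor, was lowest in Basal (59.9 to 80.6 CPM) and highest in Cort (159 to 180 CPM), with RU486 at 101 to 122 CPM. Hippocampal markers were present in every library, with summed levels of 356 to 1041 CPM for 7 CA1 genes and 503 to 933 CPM for 9 dentate gyrus genes. Markers of the choroid plexus and the thalamus varied more than these. The summed level of 12 choroid plexus markers ran from 35.6 CPM to 4441 CPM in RU486 6, and was also above 1000 CPM in RU486 25 (2713) and Cort 4 (1726). Vehicle 16 stood apart with the highest sum of 11 thalamus markers (722 CPM) and the lowest CA1 sum (356 CPM). Vehicle 29 had the lowest sums for CA2 (126 CPM), CA3 (296 CPM) and dentate gyrus (503 CPM). Of all marker genes, Isl1 was at 0 in 12 libraries, Gbx2 in 7, Slc4a5 in 2, and Kcnj13, Chrnb4 and Pou4f1 in 1 each. In bulk tissue, fewer cells of a type and less RNA per cell cannot be told apart.

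Htr1a was the receptor mRNA with the highest level per length. Divided by the exon length in kb, it averaged 8.66 ± 1.34 CPM per kb (SD, n = 28). Htr3a (4.30 ± 0.73), Htr4 (3.91 ± 0.61) and Htr5b (3.52 ± 0.62 CPM per kb) followed, and the gap between neighbours in this trio was smaller than their SD. Htr5a (2.53 ± 0.28), Htr7 (2.33 ± 0.49), Htr1b (1.89 ± 0.55) and Htr2c (1.85 ± 1.25 CPM per kb) formed the next stretch, again with gaps smaller than the SD of either neighbour. Htr6 (1.34 ± 0.26) and Htr2a (1.32 ± 0.29 CPM per kb) were lowest and did not differ beyond their spread. The rank of Htr2c depends on the length used, since its 7 annotated transcripts together cover 9.328 kb and the longest holds 4883 bases. With the longest transcript its mean was 3.54 CPM per kb, between Htr4 and Htr5b.

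**Figure D1:**
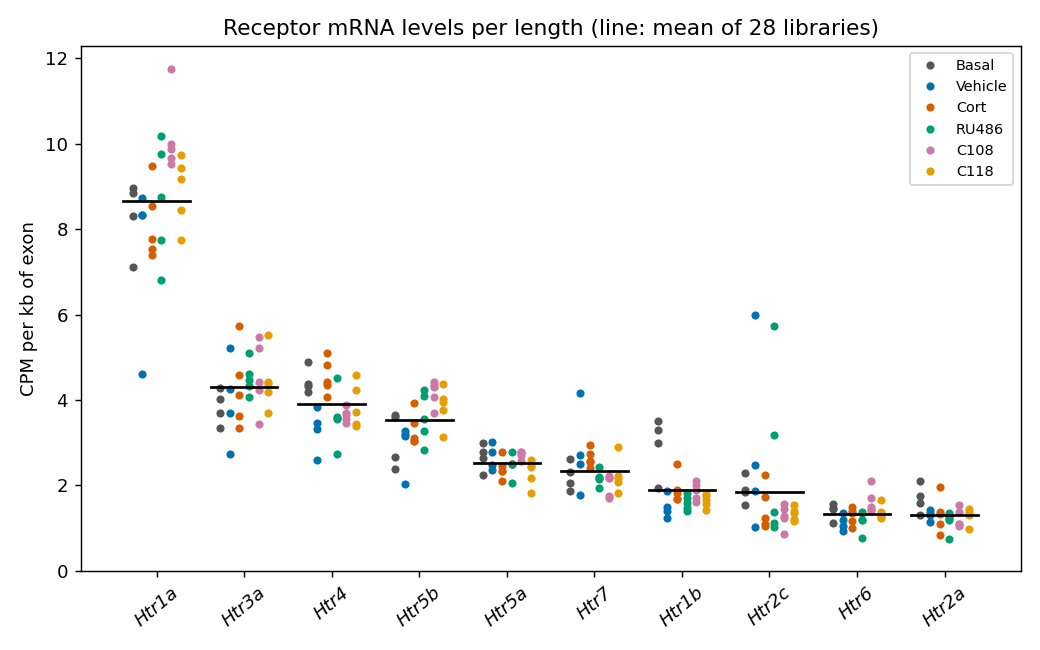
Level of each receptor mRNA in CPM per kb of exon (vertical axis), 1 point per library coloured by group, with a line at the mean of 28 libraries. Htr1a has the highest mean, and a few single libraries of Htr2c and Htr7 lie far above their own mean.

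Summed over the 10 genes, receptor mRNA came to 31.7 ± 2.57 CPM per kb (SD, n = 28), and the group means lay between 29.9 (Vehicle) and 33.3 (C108). Htr1a alone made up 27.3% ± 3.32 of that sum. Its share averaged 25.5% in Basal, 24.9% in Vehicle, 25.96% in Cort, 27.5% in RU486, 30.6% in C108 and 28.5% in C118. Receptors coupled to Gi/o (Htr1a, Htr1b and Htr5a) summed to 13.1 ± 1.63 CPM per kb. Those coupled to Gs (Htr4, Htr6 and Htr7) summed to 7.58 ± 0.82, and those coupled to Gq (Htr2a and Htr2c) to 3.17 ± 1.30. The Gq sum was highest in Vehicle 29 (7.31) and RU486 6 (7.08 CPM per kb). These sums and shares use the 9.328 kb of all Htr2c transcripts, and the Gq sum would be higher with the longest transcript.

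Of the 10 receptors, 2 differed among the 6 groups at an adjusted p under 0.05 (edgeR's quasi-likelihood test, Benjamini-Hochberg adjustment over all tested genes), namely Htr1b (adjusted p = 0.000664) and Htr4 (adjusted p = 0.0392). Of all tested genes, 4.73% were called in the same test. At an unadjusted p under 0.05 there were 5 of 10 receptors, against 18.6% of all genes. The other 8 receptors had adjusted p-values from 0.13 (Htr5b) to 0.77 (Htr3a). When single libraries were left out, Htr1b was called in 28 of 28 fits (adjusted p from 3.95e-05 to 0.0115) and Htr4 in 12 of 28 (adjusted p from 0.0137 to 0.0922).

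**Figure D2:**
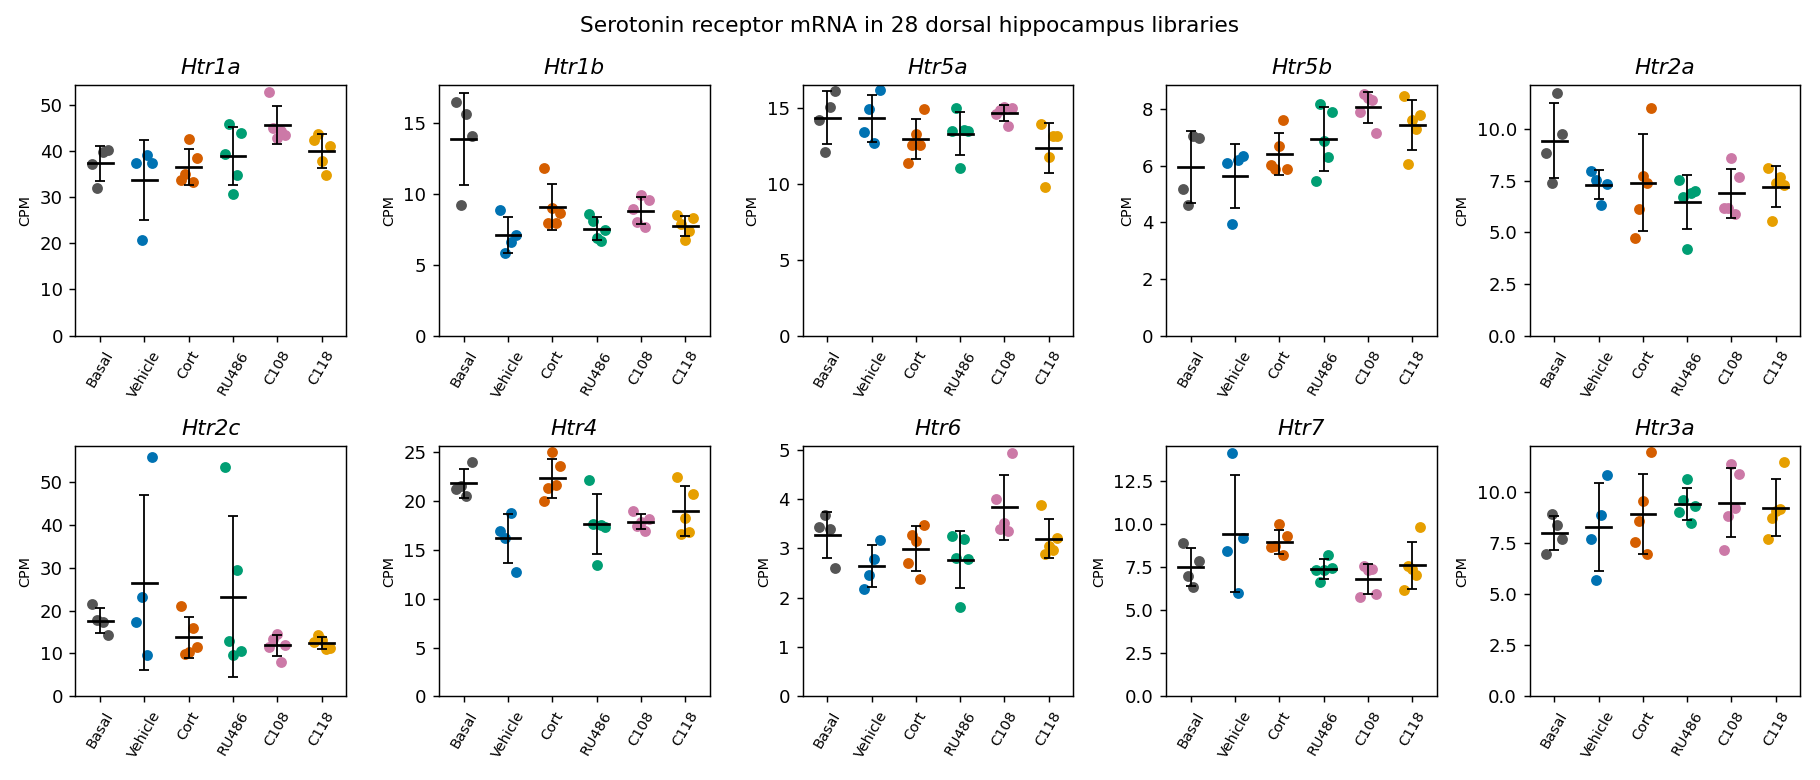
Level of each receptor mRNA in CPM (vertical axis, 1 panel per gene) by group, 1 point per library, with lines at group means and bars for the SD. Htr1b shows 3 of 4 Basal libraries above every conditioned library, and Htr2c shows single high libraries in Vehicle and RU486.

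Htr1b, which encodes the Gi/o-coupled receptor of axon terminals, was lower in every conditioned group than in Basal. The gene (ENSMUSG00000049511) lies on the minus strand of chromosome 9, at chr9:81628291-81633828 of GRCm38, the assembly also called mm10. The 4 Basal libraries held 16.5, 9.21, 15.6 and 14.1 CPM of Htr1b, and the 4 Vehicle libraries 8.88, 5.85, 6.64 and 7.11 CPM. The 5 Cort libraries stood at 11.9, 7.99, 8.98, 7.96 and 8.64 CPM and the RU486 libraries at 8.60, 8.08, 6.91, 6.68 and 7.49 CPM. C108 libraries had 8.98, 8.05, 9.90, 7.66 and 9.55 CPM and C118 libraries 8.53, 7.87, 6.74, 7.40 and 8.28 CPM. Basal 1, 14 and 27 lay above all 24 conditioned libraries, and Basal 9 lay within the range of Cort and C108. Vehicle, RU486 and C118 did not overlap with Basal. The group means were 13.9 ± 3.27 CPM in Basal (SD, n = 4), 7.12 ± 1.29 in Vehicle (n = 4), 9.09 ± 1.61 in Cort, 7.55 ± 0.80 in RU486, 8.83 ± 0.96 in C108 and 7.76 ± 0.72 in C118 (n = 5 each).

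The mean of the 5 conditioned groups was lower than Basal by a log2 difference of -0.79 ± 0.11 (SE), or 0.579 times the Basal level, with an adjusted p of 2.16e-05. Htr1b was the 1 receptor of 10 called in this comparison, in which 11.2% of all tested genes were called and 6.29% were called lower. Against Basal the log2 difference of Vehicle was -0.96 ± 0.15 (adjusted p = 0.000266), that of RU486 -0.88 ± 0.14 (adjusted p = 0.000537) and that of C118 -0.84 ± 0.14 (adjusted p = 0.00086). C108 at -0.65 ± 0.14 (adjusted p = 0.00686) and Cort at -0.61 ± 0.14 (adjusted p = 0.00697) were closer to Basal. These 5 comparisons share the same 4 Basal libraries. Without Basal 1, the highest library, the adjusted p was 0.0528 for Cort and 0.0536 for C108, while Vehicle, RU486 and C118 were called whichever single library was left out.

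Htr1b was the only receptor called in Cort, RU486, C108 or C118 against Basal, and 1 of 2 in Vehicle against Basal. The background in Vehicle against Basal was 4.11% of genes called and 2.47% called lower. It was 6.27% and 3.43% for Cort, 5.45% and 2.84% for RU486, 6.04% and 3.24% for C108, and 3.87% and 2.13% for C118. The median log2 difference of the 10 receptors from Basal ran from -0.12 (C118) to -0.06 (C108) over these comparisons, beside medians of 0.00 to 0.01 over all genes.

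Some tissue markers moved in the same direction as Htr1b. The sum of 11 neocortex markers was 295 to 307 CPM in Basal and 235 to 316 CPM in the conditioned libraries, and 2 of the 11, Fezf2 and Tbr1, were called lower in conditioned mice. Of the other lists, 5 of 9 dentate gyrus markers were called (3 lower, 2 higher), 2 of 15 glial and vascular markers (both lower), 1 of 5 CA2 markers (higher), and 1 each of the habenula and striatum markers (lower), beside 11.2% of all genes. The sum of 6 habenula markers was 40.3 to 46.0 CPM in Basal and 22.9 to 41.8 CPM in the conditioned libraries. Vehicle 16 and Vehicle 29, whose unusual marker sums are given above, held neocortex sums of 305 and 316 CPM, inside or above the Basal range. Their Htr1b levels were 5.85 and 7.11 CPM. Vehicle 3 and Vehicle 23 held neocortex sums of 245 and 240 CPM, below the Basal range, with 8.88 and 6.64 CPM of Htr1b. The part of these marker lists in the Htr1b difference was not tested. With thalamus and neocortex scores in the fit, the log2 difference of conditioned mice from Basal was -0.77 (adjusted p = 0.000325), and the C108 difference of -0.63 had an adjusted p of 0.0624. With CA1 and dentate gyrus scores in the fit, a choice made after the data were seen, the Cort difference in Htr1b was -0.47 (adjusted p = 0.0855) and that of conditioned mice -0.70 (adjusted p = 0.000271).

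The antisense gene D430036J16Rik shares 852 exon bases with Htr1b. Libraries were stranded per the labels, while the sources used here do not state the strand setting of the counting. It is therefore not known to which of these genes, if any, reads of this stretch were counted. D430036J16Rik had 12 to 40 counts per library and was not called in any comparison. Its log2 difference was -0.26 ± 0.20 in conditioned mice against Basal (adjusted p = 0.438) and -0.49 ± 0.27 in Vehicle against Basal (adjusted p = 0.342).

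RefSeq promoters (GRCm38.p6) of 7 of the 10 receptors were searched on both strands over the 250 bases before each annotated start. Windows of Htr3a, Htr4 and Htr5b were not searched, so it is not known whether they hold these motifs. The searched motifs were the glucocorticoid receptor motif AGAACA, found in 16.1% of 32851 promoters of the same length, the GC box GGGCGG in 32.7%, the TATA box TATAAA in 12.4%, the E-box CACGTG in 6.02% and the cyclic AMP response element TGACGTCA in 1.55%. The full glucocorticoid receptor element, in which this motif is followed after 3 bases by its own inverse, was found in 0.00913%. The Htr1b window is shown because that gene was called in every comparison with Basal. The Htr2a window is shown because it was the only one of the searched receptor windows with the AGAACA motif. They lie at chr9:81633833-81634082 (minus strand) and chr14:74640624-74640839 (plus strand, cut where the GENCODE gene begins), and are printed along the strand of the gene. Capitals mark motif matches.
Htr1b: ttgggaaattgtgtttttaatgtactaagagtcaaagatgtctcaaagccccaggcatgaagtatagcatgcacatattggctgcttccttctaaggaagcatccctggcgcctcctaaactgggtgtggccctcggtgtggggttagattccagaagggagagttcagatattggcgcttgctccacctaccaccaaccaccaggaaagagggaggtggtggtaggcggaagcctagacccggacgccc
Htr2a: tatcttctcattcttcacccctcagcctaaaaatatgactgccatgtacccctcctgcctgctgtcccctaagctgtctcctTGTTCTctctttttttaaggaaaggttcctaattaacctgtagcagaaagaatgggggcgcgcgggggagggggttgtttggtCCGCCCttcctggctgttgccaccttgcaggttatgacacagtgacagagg
No searched motif was present in the Htr1b window, which says only that these letters are not in it. In the Htr2a window AGAACA appears in its inverse form, 168 to 163 bases before the start, and the GC box in its inverse form, 85 to 80 bases before it. These distances count from the RefSeq start at the end of the full 250 bases, which lies beyond the 216 bases printed for Htr2a. GC boxes were also present in windows of Htr1a (1 match) and Htr6 (3 matches). A match describes the sequence and is not a binding site.

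Htr1a (ENSMUSG00000021721, chr13:105443639-105448122, plus strand), the inhibitory receptor of pyramidal cell bodies and dendrites, was not called in any comparison. It stood at 37.2, 31.9, 39.7 and 40.2 CPM in Basal and at 37.4, 20.7, 39.2 and 37.4 CPM in Vehicle. Cort libraries had 33.8, 34.9, 42.5, 33.2 and 38.4 CPM, and RU486 libraries 39.3, 45.7, 30.6, 34.7 and 43.8 CPM. C108 libraries had 52.7, 44.8, 42.7, 44.3 and 43.4 CPM, and C118 libraries 42.3, 43.7, 37.8, 34.7 and 41.1 CPM. The 5 C108 libraries lay above all Basal, Vehicle and Cort libraries, and the low Vehicle library was Vehicle 16. The log2 difference between conditioned mice and Basal was 0.05 ± 0.11, with a 95% interval of -0.17 to 0.28. C108 differed from Vehicle by 0.44 ± 0.13 on the log2 scale (adjusted p = 0.121) and from Basal by 0.29 ± 0.13 (adjusted p = 0.203).

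The ratio of Htr1a to Htr1b, both per kb, compares the mRNA levels of these Gi/o receptors within a library, not their protein. It averaged 2.92 ± 0.55 in Basal (SD, n = 4) with a range of 2.37 to 3.65. In Vehicle it averaged 4.98 ± 1.11 (n = 4), in Cort 4.33 ± 0.78, in RU486 5.41 ± 0.67, in C108 5.49 ± 0.77 and in C118 5.43 ± 0.43 (n = 5 each). The Cort range of 2.997 to 4.99 overlapped with Basal, and the other conditioned groups lay above it.

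Htr5a (ENSMUSG00000039106, chr5:27842149-27855088, plus strand), a Gi/o-coupled receptor, was among the steadiest of the 10. Its highest library held 1.65 times the level of its lowest, at 9.78 to 16.2 CPM, and group means lay between 12.3 ± 1.64 CPM in C118 and 14.6 ± 0.50 CPM in C108 (SD, n = 5 each). No comparison called it, and the log2 difference of conditioned mice from Basal had a 95% interval of -0.26 to 0.08. The spread within C108, 13.8 to 15.01 CPM, was narrow beside that of C118, 9.78 to 13.9 CPM.

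Htr5b (ENSMUSG00000050534, chr1:121509842-121528465, minus strand), which in mice encodes a receptor while the human gene is a pseudogene, was highest in C108. Basal libraries held 5.17, 4.603, 7.06 and 6.995 CPM and Vehicle libraries 6.09, 3.95, 6.19 and 6.34 CPM. C108 libraries held 7.88, 8.54, 8.41, 8.32 and 7.16 CPM, all above Basal and Vehicle. Cort (5.87 to 7.61 CPM), RU486 (5.47 to 8.19 CPM) and C118 (6.08 to 8.47 CPM) overlapped with Basal. C108 differed from Vehicle by 0.51 ± 0.15 on the log2 scale (adjusted p = 0.103) and from Basal by 0.43 ± 0.15 (adjusted p = 0.0749). Neither passed in edgeR's test, and DESeq2 called both, with adjusted p of 0.0429 and 0.0448.

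Htr2a (ENSMUSG00000034997, chr14:74640840-74709494, plus strand), the Gq-coupled receptor that hallucinogens activate, had its highest group mean in Basal, at 9.46 ± 1.84 CPM (SD, n = 4). Its 4 Basal libraries were at 8.86, 7.40, 11.8 and 9.79 CPM and the Vehicle libraries at 8.004, 7.54, 6.36 and 7.37 CPM. Cort libraries were at 4.76, 6.14, 7.74, 7.41 and 11.05 CPM, and RU486 libraries at 7.56, 6.73, 4.20, 6.93 and 7.01 CPM. C108 ranged from 5.89 to 8.61 CPM and C118 from 5.56 to 8.14 CPM. Basal 9 overlapped with each conditioned group, while Basal 14 lay above every other library. The log2 difference of conditioned mice from Basal was -0.42 ± 0.14, with a 95% interval of -0.71 to -0.13 and an adjusted p of 0.0538, which did not pass. DESeq2 (adjusted p = 0.0421) and limma-voom (adjusted p = 0.0448) called it, so the call depends on the tool. It depends on single libraries too, since edgeR's test called it in 3 of 28 fits without 1 library (adjusted p from 0.0196 to 0.314). Among single groups, RU486 had the difference farthest from 0, at -0.55 ± 0.18 (adjusted p = 0.073).

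Htr2c (ENSMUSG00000041380, chrX:146962513-147197277, plus strand), the Gq-coupled receptor whose mRNA is edited and which is abundant in the choroid plexus, varied most between libraries. Its highest library held 6.89 times the level of its lowest, and its biological coefficient of variation was 0.445, beside 0.133 for all genes in common. Basal libraries held 21.4, 17.8, 17.3 and 14.3 CPM and Vehicle libraries 17.4, 23.1, 9.59 and 55.9 CPM. Cort libraries held 21.02, 9.79, 10.3, 16.1 and 11.6 CPM, and RU486 libraries 53.5, 12.8, 9.57, 29.6 and 10.5 CPM. C108 libraries lay at 8.12 to 14.5 CPM and C118 libraries at 10.99 to 14.3 CPM, without a high library. No comparison called Htr2c. Its log2 difference from Vehicle was -1.15 ± 0.44 in C108 (adjusted p = 0.194) and -1.09 ± 0.44 in C118 (adjusted p = 0.515), and over the 40 alternative fits the C108 value ran from -1.43 to -0.12.

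The 3 libraries above 1000 CPM of choroid plexus markers were RU486 6 (53.5 CPM of Htr2c), RU486 25 (29.6 CPM) and Cort 4 (21.02 CPM). They were the highest in Htr2c of the RU486 and Cort groups. Vehicle 29 had 55.9 CPM of Htr2c with a choroid plexus sum of 176 CPM, inside the Basal range of 35.6 to 294 CPM. Its lowest CA2, CA3 and dentate gyrus sums are given above. The part of tissue composition in these Htr2c levels was not tested.

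**Figure D3:**
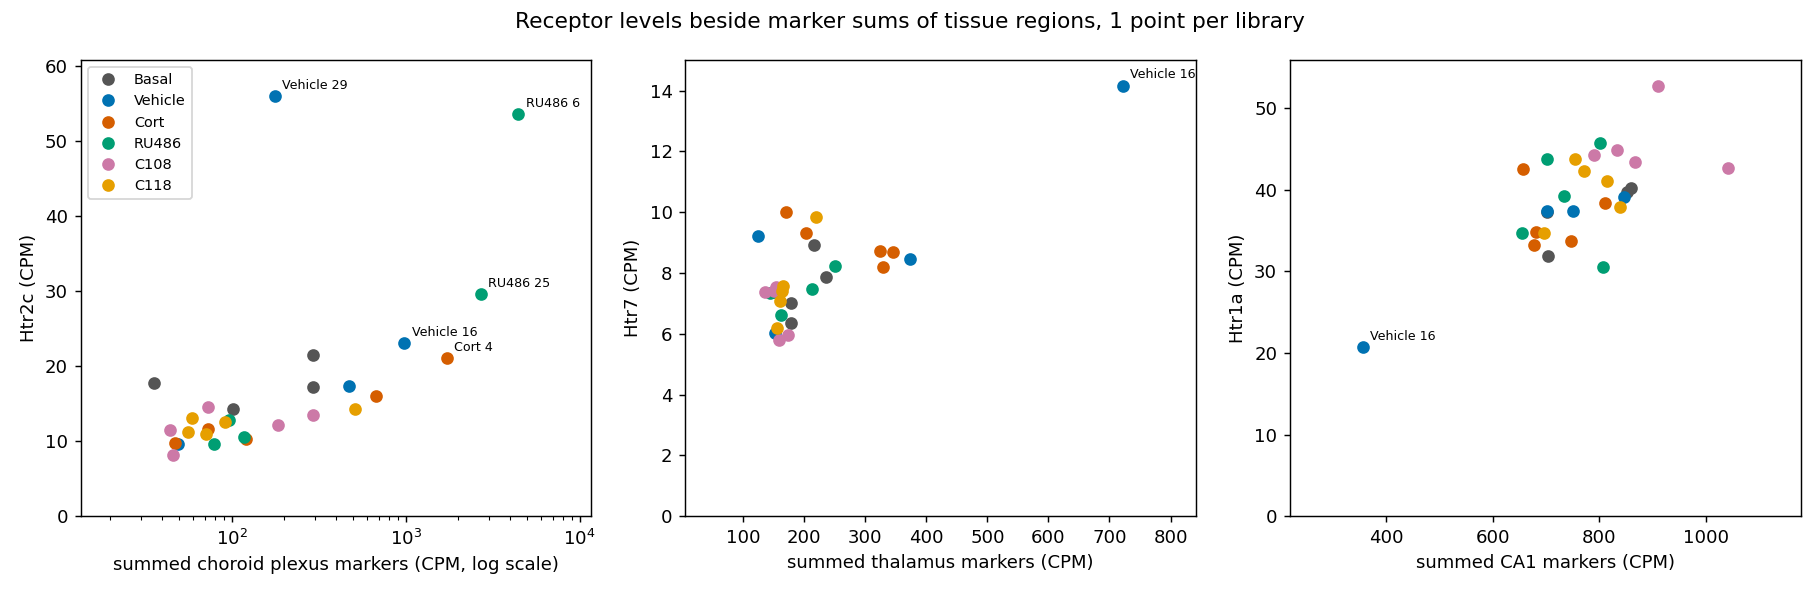
Htr2c, Htr7 and Htr1a levels in CPM (vertical axes) against the summed CPM of choroid plexus, thalamus and CA1 markers (horizontal axes, the first on a log scale), 1 point per library. RU486 6 is high in Htr2c and choroid plexus markers, Vehicle 29 is high in Htr2c but not in those markers, and Vehicle 16 stands apart in the Htr7 and Htr1a panels.

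Htr4 (ENSMUSG00000026322, chr18:62324204-62496577, plus strand), a Gs-coupled receptor of pyramidal and granule cells, was lower in Vehicle than in Basal, and stood near the Basal level in Cort. Basal libraries held 21.2, 21.5, 20.6 and 24.0 CPM and Vehicle libraries 16.99, 16.3, 18.8 and 12.8 CPM. Cort libraries held 19.998, 21.4, 25.1, 21.7 and 23.6 CPM, and RU486 libraries 22.2, 17.7, 13.5, 17.5 and 17.4 CPM. C108 libraries held 19.05, 17.5, 17.9, 16.9 and 18.1 CPM, and C118 libraries 22.5, 16.7, 18.3, 16.9 and 20.7 CPM. Vehicle and C108 did not overlap with Basal or with Cort, while 1 RU486 library and 2 C118 libraries reached those ranges. Group means were 21.8 ± 1.49 CPM in Basal (SD, n = 4), 16.2 ± 2.51 in Vehicle (n = 4), 22.36 ± 2.0005 in Cort, 17.7 ± 3.09 in RU486, 17.9 ± 0.79 in C108 and 19.01 ± 2.53 in C118 (n = 5 each).

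The log2 difference of Htr4 between Vehicle and Basal was -0.43 ± 0.12 (0.742 times, adjusted p = 0.0362). The call depended on single libraries, and was kept in 21 of 28 fits without 1 library (adjusted p from 0.0202 to 0.152). The adjusted p was 0.152 without Vehicle 29, 0.125 without Basal 27 and 0.375 without both Vehicle 16 and Vehicle 29. The difference between Cort and Basal was 0.03 ± 0.11, with a 95% interval of -0.20 to 0.26. Cort stood above Vehicle by 0.46 ± 0.11 (1.38 times), which did not pass over all genes in edgeR's test (adjusted p = 0.15). DESeq2 gave it an adjusted p of 0.0352. Against RU486 the Cort difference was 0.34 ± 0.11 (adjusted p = 0.48). Vehicle 29, the lowest library in Htr4, was also the lowest in dentate gyrus markers. The dentate gyrus sums of Vehicle 3, 16 and 23 were 729, 770 and 760 CPM, inside the Basal range of 702 to 860 CPM. Of those 9 markers, 3 (C1ql2, Tdo2 and Trpc6) were called lower in Vehicle than in Basal, where 2.47% of all genes were called lower. The part of tissue makeup in the Htr4 difference was not tested. With CA1 and dentate gyrus scores in the fit, a choice made after the data were seen, Vehicle differed from Basal by -0.26 (adjusted p = 0.325). With thalamus and neocortex scores, or with the choroid plexus score, Htr4 was still called in Vehicle against Basal.

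Htr6 (ENSMUSG00000028747, chr4:139061108-139075570, minus strand), a Gs-coupled receptor studied as a memory drug target, had few counts, from 34 to 97 per library. Basal libraries held 3.43, 3.67, 3.40 and 2.61 CPM and Vehicle libraries 2.17, 2.46, 2.79 and 3.17 CPM. C108 libraries held 3.995, 3.39, 3.51, 3.35 and 4.93 CPM, above all Vehicle and RU486 libraries (1.81 to 3.26 CPM in RU486). Cort ranged from 2.37 to 3.48 CPM and C118 from 2.89 to 3.88 CPM. C108 differed from Vehicle by 0.53 ± 0.17 on the log2 scale (adjusted p = 0.133). The log2 difference of RU486 from C108 was -0.47 ± 0.16 (adjusted p = 0.841).

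Htr7 (ENSMUSG00000024798, chr19:35958734-36057507, minus strand), the third Gs-coupled receptor, which is strongly expressed in the thalamus, was highest in Vehicle 16. Vehicle libraries held 8.47, 14.2, 6.02 and 9.21 CPM and Basal libraries 8.91, 7.01, 6.35 and 7.86 CPM. Cort libraries held 8.69, 8.73, 10.01, 8.20 and 9.31 CPM, and C108 libraries 5.80, 7.55, 7.37, 7.41 and 5.95 CPM. RU486 ranged from 6.62 to 8.24 CPM and C118 from 6.18 to 9.84 CPM. Cort and C108 did not overlap. The thalamus sum was 722 CPM in Vehicle 16 and 169 to 345 CPM in Cort, against 135 to 174 CPM in C108, and its part in the Htr7 level was not tested. C108 differed from Vehicle by -0.48 ± 0.16 on the log2 scale (adjusted p = 0.15), and over the 40 alternative fits this value ran from -0.64 to 0.01.

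Htr3a (ENSMUSG00000032269, chr9:48899213-48911099, minus strand), the channel subunit, is known as a marker of a class of hippocampal interneurons. It ranged from 5.69 CPM in Vehicle 16 to 11.97 CPM in Cort 36, and every group overlapped with every other. Group means lay between 7.997 ± 0.85 CPM in Basal (SD, n = 4) and 9.50 ± 1.69 CPM in C108 (SD, n = 5). The log2 difference of conditioned mice from Basal was 0.18 ± 0.13, with a 95% interval of -0.09 to 0.45 (adjusted p = 0.416). The sum of 14 interneuron markers ran from 1267 to 1830 CPM over all libraries, and was highest in Cort 36 as well.

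No receptor was called between any ligand and Vehicle by edgeR's test. The background of called genes was 0.00598% for Cort, 0% for RU486, 0.215% for C108 and 0% for C118 against Vehicle, so few genes of any kind passed. At an unadjusted p under 0.05 there were 3 of 10 receptors for Cort (Htr1b, Htr2c and Htr4), against 11.6% of all genes. For RU486 there was 1 (Htr7), against 8.16%. For C108 there were 6 (Htr1a, Htr1b, Htr2c, Htr5b, Htr6 and Htr7), against 17.4%, and for C118 there were 2 (Htr2c and Htr5b), against 8.01%. Limma-voom called none of the 10 in these comparisons, and DESeq2 called Htr4 for Cort and Htr5b for C108. Leaving out Vehicle 23 brought Htr4 for Cort past the threshold, and likewise Htr1a, Htr5b and Htr7 for C108. The 4 comparisons share the 4 Vehicle libraries. For Htr1b, the receptor called against Basal, the ligands stood above Vehicle by log2 differences of 0.08 (RU486) to 0.35 (Cort), with a 95% interval of -0.22 to 0.39 for RU486 and 0.05 to 0.66 for Cort.

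**Figure D4:**
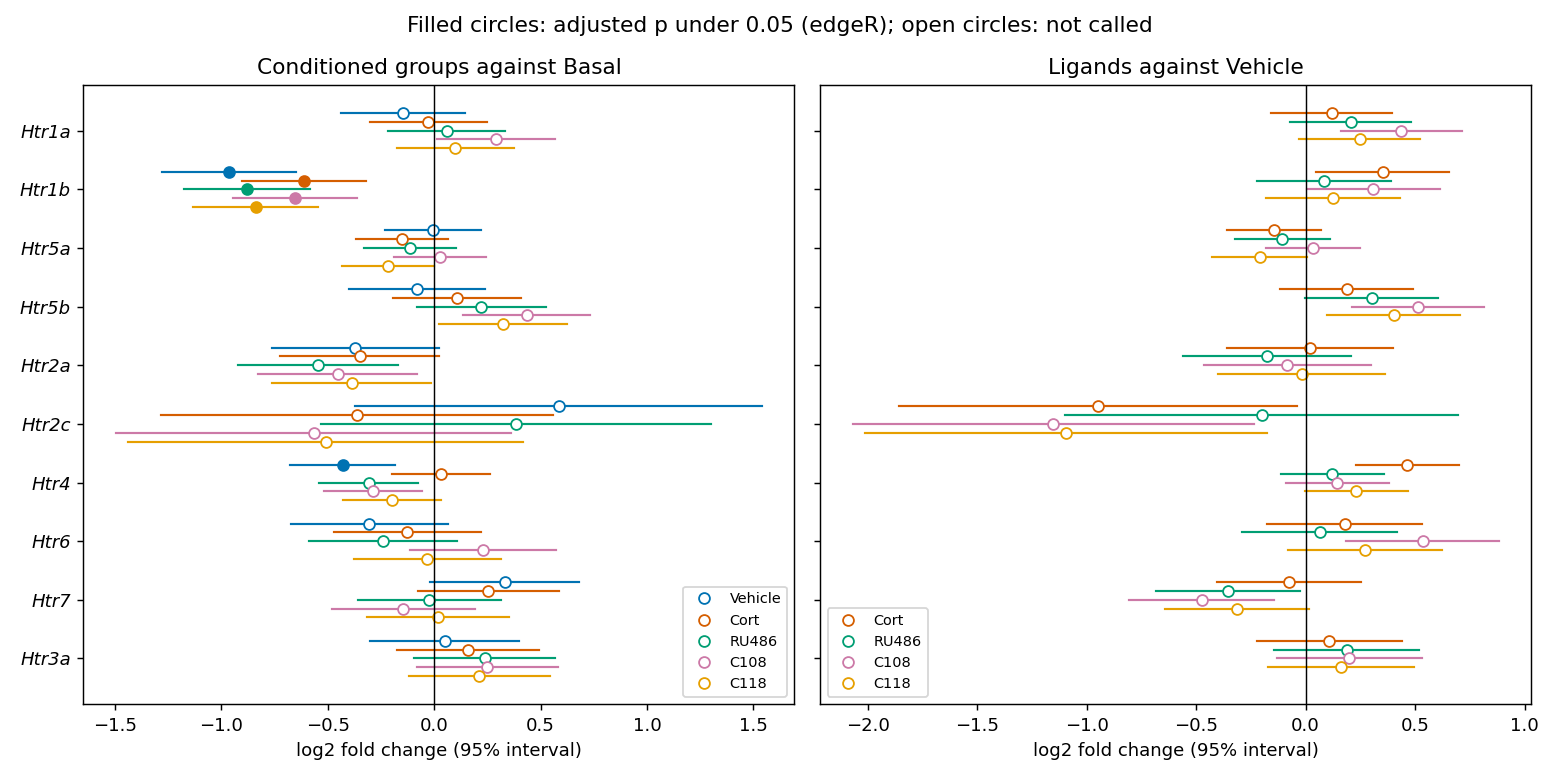
Log2 fold change of each receptor with its 95% interval (horizontal axes), for conditioned groups against Basal on the left and ligands against Vehicle on the right, with filled circles for calls at an adjusted p under 0.05. The filled circles are Htr1b in 5 groups and Htr4 in Vehicle, all on the left, and the Htr2c intervals are the widest.

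The 4 ligands were also compared with each other in 6 pairs, and no receptor was called in any pair by edgeR's test, DESeq2 or limma-voom. The background was 0.0538% of genes for Cort against RU486, and 0% for Cort against C108, Cort against C118, RU486 against C108, RU486 against C118 and C108 against C118. At an unadjusted p under 0.05 there were 5 receptors for Cort against C108 (Htr1a, Htr4, Htr5b, Htr6 and Htr7), 2 for RU486 against C108 (Htr2c and Htr6), and 1 in each other pair. Over all genes those shares were 4.88% for Cort against C108 and 1.83% to 5.74% in the other pairs. Between Cort and RU486, agonist and antagonist of the same receptor, 95% intervals of the log2 difference lay within -0.40 and 0.59 for 9 receptors, and ran from -1.62 to 0.12 for Htr2c. Between C108 and C118 they lay within -0.48 and 0.58 for the same 9, and ran from -0.95 to 0.84 for Htr2c. As no dose is stated, these pairs are not known to be matched in dose.

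Other genes of the serotonin system were taken as lists. Among 4 further receptor genes, 1 was tested, Htr1f, a Gi/o-coupled receptor at 0.923 to 2.34 CPM, and it was not called in any comparison. The other 3 were too low to be tested. Htr1d had at most 7 counts per library, Htr2b at most 3 and Htr3b, the partner subunit of Htr3a, at most 1. Of 15 genes for serotonin synthesis, transport and breakdown, 12 were tested and 1 was called in 1 comparison, Cort against Basal, where 6.27% of all genes were called, so that the count is near the background. Maoa, the enzyme that breaks down serotonin, was at 33.9 to 37.7 CPM in Basal and 25.9 to 31.0 CPM in Cort, without overlap. Its log2 difference was -0.33 ± 0.08 (adjusted p = 0.0143), so it fell in Cort against Basal. The serotonin transporter gene Slc6a4 had at most 7 counts and Tph2, the neuronal synthesis enzyme, 29 to 88 counts.

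Of 14 genes for receptor partners, chaperones and RNA editing, all were tested and 1 was called, in Vehicle against Basal, where 4.11% of all genes were called, so that this count too is near the background. Rgs19, which speeds the shut-off of Gi proteins, was at 15.8 to 19.2 CPM in Basal and 12.3 to 15.1 CPM in Vehicle, with a log2 difference of -0.38 ± 0.11 (adjusted p = 0.0393). Of 24 genes for G proteins and effectors, 4 were called in the test over all 6 groups, namely Adcy8, Pde4b, Kcnj9 and Plcb4, beside 4.73% of all genes. Adcy8, a calcium-stimulated adenylyl cyclase, was at 22.5 to 28.1 CPM in Basal and 10.9 to 17.6 CPM in every conditioned library, and fell in each conditioned group. Its log2 difference of conditioned mice from Basal was -0.78 ± 0.09 (adjusted p = 1.19e-06), and the single groups lay between -0.86 (C118) and -0.66 (Vehicle).

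Kcnj9, a subunit of the potassium channels that Gi/o-coupled receptors open, was at 70.2 to 113 CPM in Basal. It fell in RU486 (log2 difference -0.67 ± 0.14), C108 (-0.50 ± 0.14) and C118 (-0.67 ± 0.14), with adjusted p from 0.00677 to 0.0357. Pde4b, a cyclic AMP phosphodiesterase, was at 71.7 to 83.7 CPM in Basal and fell in Cort (-0.48 ± 0.08, adjusted p = 0.000354), RU486 (-0.29 ± 0.08) and C108 (-0.28 ± 0.08). Plcb4, a phospholipase C, was at 96.5 CPM in Vehicle 16, the library high in thalamus markers, and at 17.3 to 43.9 CPM elsewhere. Gnai1, a Gi alpha subunit named after its values were seen, fell in Cort against Basal (-0.31 ± 0.08, adjusted p = 0.0218). In conditioned mice 3 of the 24 were called, all lower, beside 11.2% of all genes called and 6.29% called lower. The list's median log2 difference of conditioned mice was -0.03 beside 0.01 over all genes.

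Likeness to other genes was described by Pearson's r of log2 CPM over the 28 libraries, which share depth and tissue makeup, so that it carries no test. Htr1b was most like Fam13c (r = 0.83, Spearman's rho = 0.70), and r was 0.69 without the 2 libraries farthest from the median and 0.53 after group means were removed. Htr2c was most like Vat1l (r = 0.87, rho = 0.87), and there r was 0.85 both without the 2 farthest libraries and after group means were removed. Htr1a was most like Sh3rf1 (r = 0.85, and 0.68 without Vehicle 16 and C108 8). Its second gene, Chrna5, a nicotinic receptor subunit (r = 0.85), was also among the top 3 of Htr5b (r = 0.75). Without the 2 farthest libraries, which included Vehicle 16 for both receptors, r with Chrna5 was 0.66 for Htr1a and 0.61 for Htr5b.

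Htr2a was most like Gabrb2, a GABA-A receptor subunit (r = 0.85), Htr3a like Thumpd1 (r = 0.85) and Htr7 like Cux2 (r = 0.80), which is one of the neocortex markers. Plcb4 was the second gene of Htr7 (r = 0.79, and 0.65 without Vehicle 16 and Cort 17). For Htr4 the top gene was Igsf3 (r = 0.78), for Htr5a Phf24 (r = 0.74), for Htr5b Stum (r = 0.78) and for Htr6 Zc3h12b (r = 0.77). Map2k6, a MAP kinase kinase, was in the top 3 of both Htr2a (r = 0.80) and Htr5a (r = 0.73).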

How the data were processed

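Stranded libraries were made from enriched mRNA and sequenced from both ends on a DNBseq instrument, per the labels. The deposited table holds raw counts per gene, made by the authors with HTSeq 0.6.1 on mm10 after FastQC and MultiQC, per the submitters' processing notes. The sources used here do not give the aligner, annotation release or strand setting. The 5 rows that name no gene held 12.6% to 19.7% of reads and were left out.

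Counts were fitted with edgeR 4.0.16 in R 4.3.3 (robust quasi-likelihood, TMM, 28 libraries, 22 residual degrees of freedom), after filterByExpr (count minimum 10, total minimum 15). Tests were two-sided, adjusted over 16735 genes by the Benjamini-Hochberg method, at 0.05. Intervals are 95%. DESeq2 1.42.0 and limma-voom (limma 3.58.1), other filters, RLE size factors, the sample number or marker scores in the fit, and leaving out libraries were alternatives. The script was tested on simulated data. Exon lengths and coordinates are from GENCODE M21, which placed 50376 of 50686 genes.

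Members and lists were chosen with earlier results of these data known. All 10 receptors are named. From each other list, up to 4 called genes are named, or at most 2 where none was called. Outside this rule, and after their values were seen, Gnai1, Tph2 and the low-count genes Htr1d, Htr2b, Htr3b and Slc6a4 were named. For each receptor with a mean of at least 1 CPM, the top 3 of all tested genes by r of log2 CPM (prior count 2) were kept. Results of 1 marker gene are not reported here.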

Additional observations from a re-analysis of the deposited data

Results flagged for a closer look

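Each receptor was checked in each group for a library far from the others by Dixon's test, which flags about 1 in 20 groups by chance. Of 60 groups, 5 held such a library. Vehicle 16 was far below the other Vehicle libraries in Htr1a, at 20.7 CPM, and in Htr5b, at 3.95 CPM. C108 8 was far above the other C108 libraries in Htr1a, at 52.7 CPM. Cort 4 was far above the other Cort libraries in Htr1b, at 11.9 CPM. RU486 19 was far below the other RU486 libraries in Htr2a, at 4.20 CPM.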

How the results depend on the processing

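No paired analysis was possible because groups have no sample number in common. Htr1b in conditioned mice was called against Basal in 39 of 39 alternative fits, with log2 differences from -0.94 to -0.69, and in 40 of 40 for Vehicle, RU486 and C118, and 38 of 40 for Cort and C108. Receptors called over all 6 groups (2) became 1 with thalamus and neocortex scores, with CA1 and dentate gyrus scores, or without both Vehicle 16 and Vehicle 29, and 3 with DESeq2. Those called in conditioned mice (1) became 2 with DESeq2, limma-voom, the stricter filter or the sample number, and 3 without the libraries above 1000 CPM of choroid plexus markers. Vehicle against Basal (2) became 1 with only the groups compared in the fit, without both Vehicle 16 and Vehicle 29, or with CA1 and dentate gyrus scores. Cort against Basal (1) became 0 with CA1 and dentate gyrus scores. RU486 against Basal (1) became 2 with DESeq2 or the sample number and 3 without the high choroid plexus libraries. C108 against Basal (1) became 2 with DESeq2, with only the groups compared or without both Vehicle 16 and Vehicle 29, 0 with thalamus and neocortex scores, and 3 with CA1 and dentate gyrus scores. C118 against Basal (1) became 2 with only the groups compared. Against Vehicle, Cort and C108 (0 each) became 1 each with DESeq2. Leaving out 1 library gave 1 to 3 over all groups (3 without Vehicle 23, with Htr7), 1 to 2 in conditioned mice, 1 to 2 for Vehicle, 0 to 1 for Cort, 1 to 2 for RU486 and 0 to 2 for C108 against Basal, and 0 to 1 for Cort and 0 to 3 for C108 against Vehicle. The fits with CA1 and dentate gyrus scores and without the high choroid plexus libraries were chosen after the data were seen. The cause of these changes was not tested. Depth limits Htr6 most, with 34 to 97 counts per library.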
